A study of Mus musculus with 6 samples.

Results

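The Notch receptors Notch1 to Notch4, the ligands Jag1, Jag2 and Dll4 and the transcriptional repressors Hey1, Hey2 and Heyl were followed in the aortic roots of mice labelled wild type or knockout for Sost. The 10 genes were taken by symbol from a table of 23420 genes, and each of the 10 was among the 15096 genes with enough counts to be tested. Aortic roots, the first part of the aorta with the valve and bordering heart muscle, came from C57BL6/J mice of 12 months that had eaten standard chow to 4 months of age and a high-cholesterol diet (TestDiet 5TJT) for the following 8 months. RNA was sequenced from 3 roots labelled Sost+/+ and 3 labelled Sost-/-, which share strain, diet and age. The numbers 1 to 3 used here within each genotype follow the deposited order and do not come from the labels. Sost encodes sclerostin, a secreted Wnt antagonist, and the study's description calls the mutants double knockouts without naming the allele or the tissue in which it acts.

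Notch receptors are membrane proteins that are cut when a ligand of the Jagged or Delta-like type on a neighbouring cell pulls on them. The freed intracellular part enters the nucleus, joins the DNA-binding protein RBPJ and Mastermind-like coactivators, and turns on genes of the HES and HEY families. In the vessel wall, Dll4, Notch1 and Notch4 are known from endothelium, and Notch3, Jag1 and Heyl from smooth muscle and pericytes. This division is not exclusive, for Jag1 in particular. Hey2 is known from vascular smooth muscle, arterial endothelium and ventricular muscle. Loss of Notch1 function is linked to malformed and calcified aortic valves in humans.

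Total counts were 37023586 to 48172863 per library. Sost itself went against the genotype labels: it was counted 354, 621 and 274 times in the roots labelled Sost+/+, and 2284, 1063 and 513 times in the roots labelled Sost-/-. The genotypes overlapped, and the log2 fold change of 1.56 (SE 0.48) did not pass (edgeR adjusted p = 0.124). Counts per gene do not show whether these reads come from a part of the gene that the allele keeps or whether the genotype labels were exchanged, which would turn every direction below. For that reason each direction below compares roots by label only, Sost-/- against Sost+/+. Cardiomyocyte, smooth muscle and endothelial markers were all present. Of 14 smooth muscle markers, 11 rose and 0 fell (median log2 fold change 1.55), led in abundance by Acta2, Tagln and Myh11. Their mean level was 6.0 to 6.86 log2 CPM (CPM is a count scaled to a common library size) in the roots labelled Sost+/+ and 7.42 to 8.03 in the roots labelled Sost-/-. Of 10 cardiomyocyte markers, 0 rose and 1 fell (median -0.45), and their mean level was 11.97 to 12.08 against 11.50 to 11.79. Of 13 endothelial markers, 0 rose and 0 fell, at 6.42 to 6.59 against 6.17 to 6.63. Of the other lists, mean levels were higher without overlap for pericyte (5 markers, 1 rose), fibroblast (6 markers, 0 rose), chondrocyte (5 markers, 1 rose) and Schwann cell markers (4 markers, 0 rose). They were lower without overlap for 4 ventricular cardiomyocyte markers (10.43 to 10.72 against 9.66 to 10.17, 0 fell), and overlapped for arterial endothelial, atrial, macrophage and adipocyte markers. Atrial levels differed widely between roots (7.39 to 9.61 against 8.13 to 10.01), lowest in root 1 labelled Sost+/+ and highest in root 3 labelled Sost-/-. Adipocyte levels did too (2.54 to 4.26 against 4.16 to 5.72). Whether this spread bears on the results below was not tested. In RNA from whole tissue, a change in the number of cells of a type and a change in RNA per cell cannot be told apart.

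Promoter sequence is shown for the members that passed the test, Hey2 and Jag1, and for Dll4, a ligand gene that did not pass. The windows were read from a RefSeq table (build GRCm38.p6) for 8 of the 10 genes, 250 bases before to 50 after the start. They are printed 5′ to 3′ on the gene's strand. The upstream sequences are printed only as far as no annotated first exon begins. The Hey2 site is an exception and lies inside the annotated gene, which begins at 30842801. Capitals mark the motif CGTGGGAA, a strong RBPJ binding sequence, or its reverse complement. The Hey2 window is chr10:30842802-30843033 (minus strand), the Hey2 site lies at chr10:30842771-30842798 (minus strand), the Jag1 window is chr2:137116645-137116770 (minus strand) and the Dll4 window is chr2:119325534-119325783 (plus strand).
Hey2 upstream: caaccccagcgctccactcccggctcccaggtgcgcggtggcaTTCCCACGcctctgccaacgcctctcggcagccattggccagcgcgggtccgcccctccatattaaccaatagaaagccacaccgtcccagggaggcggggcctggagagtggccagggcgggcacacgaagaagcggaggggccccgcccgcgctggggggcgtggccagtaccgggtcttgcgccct
Hey2 site at the start: tgggctgcagCGTGGGAAagaacctcca
Jag1 upstream: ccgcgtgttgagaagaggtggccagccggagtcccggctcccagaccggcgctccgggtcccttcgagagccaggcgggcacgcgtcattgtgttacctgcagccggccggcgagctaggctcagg
Dll4 upstream: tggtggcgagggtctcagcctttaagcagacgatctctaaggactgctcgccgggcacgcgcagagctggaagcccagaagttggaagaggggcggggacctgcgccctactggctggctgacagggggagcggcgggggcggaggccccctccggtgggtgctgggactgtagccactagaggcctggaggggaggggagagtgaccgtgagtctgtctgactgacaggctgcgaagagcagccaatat
Over the full windows, searched on both strands, Hey2 held CGTGGGAA 2 times, in opposite orientation. The upstream copy is reversed and its first base lies at -207 from the RefSeq start. The other copy begins at -5 and runs across that start. Among 32851 promoter windows of this length, 241 (0.734%) held the motif and 4 (0.0122%) held it 2 or more times. The shorter core TGGGAA, which lies within that motif, was found in 25.6% of windows. Among the 8 members matched, it was found in Hey2 alone, where both matches are the ones just described. No window was available for Hey1 or Heyl, so Hey2 was the only HEY gene searched. Whether the motif sets Hey2 apart from Hey1 and Heyl was not tested. The CArG box, bound by serum response factor in smooth muscle genes (1.63% of windows), and the E-box CACGTG (7.15%) were in none of these 8 windows. A match describes letters in the window, not a site in use.

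With all 6 libraries in edgeR, Hey2 rose, Jag1 rose, and no member fell. Of the 10 members, 2 rose and 0 fell, where edgeR called 2.55% of all genes tested, 2.18% as higher and 0.371% as lower. The median log2 fold change was 0.16 over the members and 0.01 over all genes tested, with 6 members above and 4 below 0. The 3 libraries of each genotype did not overlap for Jag1, Hey2 and Heyl, all higher in the roots labelled Sost-/-, where 25.4% of all genes did not overlap, 14.3% as higher and 11.1% as lower. The other 7 members overlapped.

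**Figure D1:**
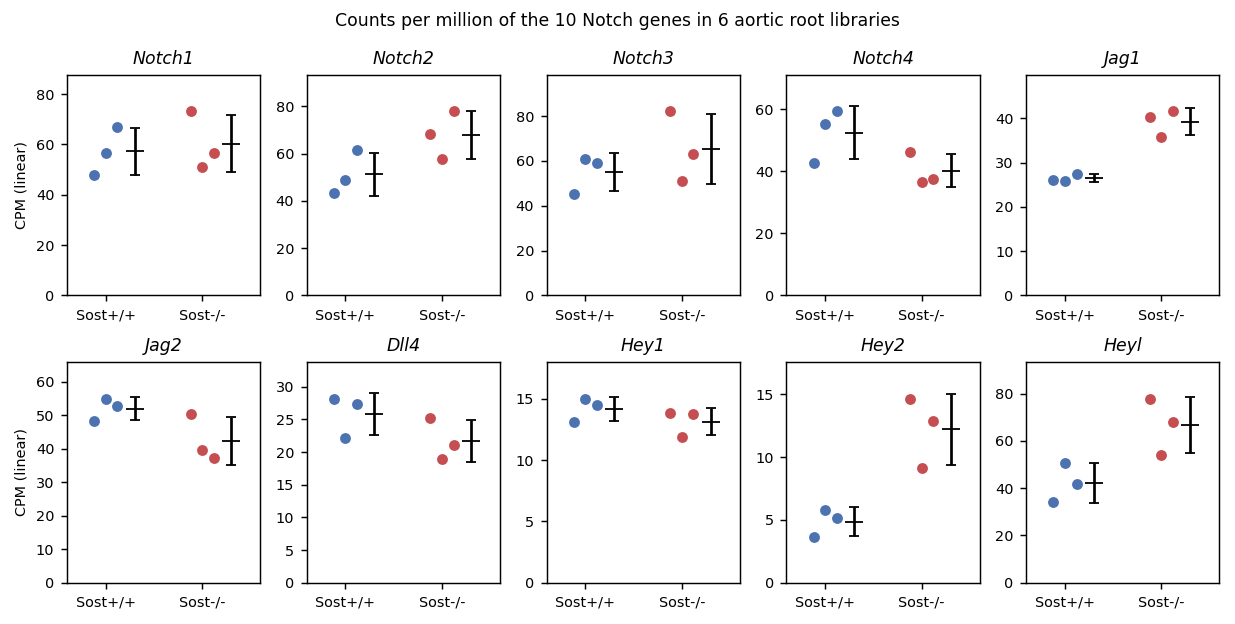
Scaled counts (CPM, linear axis from 0) of each Notch gene in every library, with blue points for roots labelled Sost+/+, red points for those labelled Sost-/-, and the black bar giving mean and SD (n = 3). Jag1, Hey2 and Heyl show no overlap between genotypes, whereas the 4 receptors, Jag2, Dll4 and Hey1 overlap.

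The receptors are single-pass membrane proteins that carry the signal from ligand to nucleus. Notch1, on chromosome 2 from 26457903 to 26516663 (minus strand, build mm10, as are all gene positions here), stood at 48.0, 56.7 and 66.9 CPM in the roots labelled Sost+/+ and at 73.1, 51.2 and 56.7 CPM in the roots labelled Sost-/-. The genotypes were interleaved, and the log2 fold change of 0.08 had a 95% interval of -0.27 to 0.43. Notch2, on chromosome 3 from 98013527 to 98150361 (plus strand), stood at 43.4, 48.9 and 61.3 CPM against 68.3, 57.7 and 77.8 CPM. Only the highest root labelled Sost+/+ and the lowest labelled Sost-/- crossed, and the log2 fold change of 0.41 (SE 0.15, interval 0.08 to 0.74) did not pass after adjustment (edgeR adjusted p = 0.170).

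Notch3, a receptor of mural cells on chromosome 17 from 32120820 to 32166852 (minus strand), stood at 45.2, 60.9 and 59.1 CPM against 82.1, 50.9 and 63.3 CPM. The genotypes overlapped, and root 1 labelled Sost-/- stood above the other 5, with a log2 fold change of 0.25 (interval -0.14 to 0.64). Notch4, an endothelial receptor on chromosome 17 from 34564268 to 34588503 (plus strand), was at 42.8, 55.1 and 59.3 CPM against 46.2, 36.6 and 37.5 CPM. It had the lowest fold change of the 10 members (log2 -0.38, SE 0.14, interval -0.70 to -0.07), which did not pass (edgeR adjusted p = 0.170). Root 1 labelled Sost+/+ lay below root 1 labelled Sost-/-, and otherwise the genotypes were apart.

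Ligands are membrane proteins that activate receptors on adjacent cells. Jag1, on chromosome 2 from 137081456 to 137116644 (minus strand), was counted at 26.2, 25.8 and 27.5 CPM in the roots labelled Sost+/+ and at 40.2, 35.8 and 41.6 CPM in the roots labelled Sost-/-. All 3 roots labelled Sost-/- lay above the others, from a baseline with little spread (26.5 ± 0.886 against 39.2 ± 2.99 CPM, SD, n = 3). The rise was 1.48-fold (log2 0.57, SE 0.09, interval 0.37 to 0.77, edgeR adjusted p = 0.0194). Jag2, on chromosome 12 from 112907819 to 112929776 (minus strand), was at 48.1, 54.9 and 52.8 CPM against 50.4, 39.5 and 37.1 CPM. The log2 fold change of Jag2 was -0.30 (SE 0.12, interval -0.57 to -0.02) and did not pass (edgeR adjusted p = 0.218). Dll4, the endothelial Delta-like ligand on chromosome 2 from 119325784 to 119335962 (plus strand), was at 28.2, 22.2 and 27.3 CPM against 25.2, 18.9 and 21.1 CPM. Its genotypes overlapped, with a log2 fold change of -0.25 (interval -0.55 to 0.05).

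HEY proteins are basic helix-loop-helix repressors and direct targets of Notch signalling. Hey2, on chromosome 10 from 30832359 to 30842801 (minus strand), had the fewest counts of the members in the roots labelled Sost+/+, with 162, 229 and 188, and had 627, 369 and 540 counts in the roots labelled Sost-/-. These are 3.63, 5.82 and 5.16 CPM against 14.7, 9.10 and 12.9 CPM, so the lowest root labelled Sost-/- lay well above the highest labelled Sost+/+. Hey2 rose 2.51-fold (interval 1.78 to 3.55, log2 1.33, SE 0.22, edgeR adjusted p = 0.0235). Heyl, on chromosome 4 from 123233556 to 123249875 (plus strand), was at 34.1, 50.8 and 41.8 CPM against 77.9, 54.2 and 67.9 CPM. The genotypes did not overlap, but the nearest libraries were 50.8 and 54.2 CPM, and the log2 fold change of 0.66 (SE 0.17, interval 0.29 to 1.03) missed the threshold (edgeR adjusted p = 0.0773). DESeq2 called Heyl (adjusted p = 0.00555, where it called 5.08% of genes as higher), as did edgeR without a filter on low counts (adjusted p = 0.0315, 2.4% called as higher). With 1 root left out DESeq2 called Heyl in 3 of 6 fits, and not without root 1 labelled Sost+/+ (adjusted p = 0.0808) or root 1 or 3 labelled Sost-/- (0.0643 and 0.0762). Hey1, an endothelial HEY gene on chromosome 3 from 8663359 to 8667256 (minus strand), was at 13.1, 15.006 and 14.5 CPM against 13.9, 11.8 and 13.7 CPM. The log2 fold change of Hey1 was -0.11, with an interval of -0.36 to 0.14.

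The calls of Hey2 and Jag1 depended on single libraries in edgeR but not in DESeq2. Without root 1 labelled Sost+/+ and without root 3 labelled Sost-/-, edgeR called neither (of all genes 0 and 10 were called, all higher, with 2262 and 1714 at an unadjusted p under 0.05). The adjusted p was 0.115 and 0.0991 for Hey2, and 0.105 and 0.104 for Jag1. Without root 2 labelled Sost+/+ Jag1 was at 0.0518, and without root 3 of that label Hey2 was at 0.0544. The log2 fold changes ranged from 1.14 to 1.5 for Hey2 and from 0.52 to 0.63 for Jag1 over the 6 fits with 1 library left out. Genes called as higher by edgeR made up 0%, 1.56% and 0.527% of all genes without root 1, 2 or 3 labelled Sost+/+, and 2.04%, 1.19% and 0.0655% without root 1, 2 or 3 labelled Sost-/-. The same shares in DESeq2 were 2.91%, 4.44% and 4.42%, and 5.14%, 3.85% and 1.9%. DESeq2 called both genes in each of its 6 such fits, with an adjusted p of at most 0.000825 for Hey2 and 0.00721 for Jag1. These DESeq2 fits also called members that did not pass with all libraries. Notch4 was called lower without root 1 labelled Sost+/+ (adjusted p = 0.0134) and without root 1 labelled Sost-/- (0.0248), where Jag2 was too (0.00649). In those 2 fits, 206 of 14380 and 484 of 14329 genes with an adjusted p were called lower. Notch2 was called higher without root 3 labelled Sost+/+ (0.00814) and without root 2 labelled Sost-/- (0.0493).

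**Figure D2:**
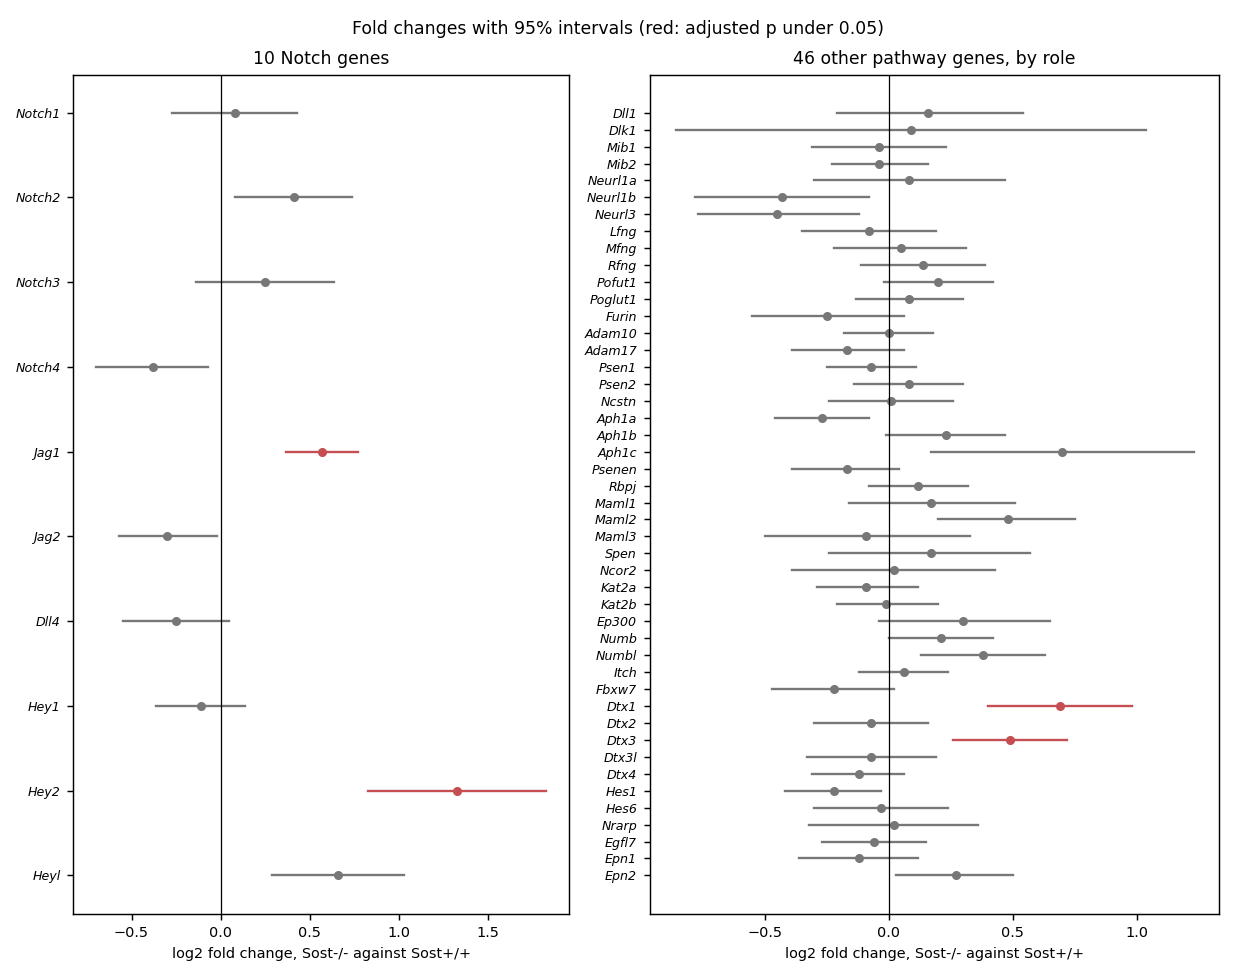
Log2 fold changes (points) with 95% intervals (lines) for the 10 members and for 46 other genes of the pathway, ordered by role, with red for an adjusted p under 0.05 in edgeR. Hey2 and Jag1 on the left and Dtx1 and Dtx3 on the right are the genes in red, and each lies above 0.

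Per length of the principal transcript, the scale on which genes can be set against each other, most members overlapped with their neighbours in the order of levels. In the roots labelled Sost+/+ the order of mean levels in CPM per kb was Jag2 (10.2), Heyl (9.31), Notch4 (7.95), Dll4 (6.92), Notch3 (6.87), Notch1 (6.03), Hey1 (5.86), Notch2 (4.88), Jag1 (4.72) and Hey2 (1.91). Every pair of neighbours in this order overlapped between libraries except Jag1 and Hey2, so Hey2 stood apart at the bottom. In the roots labelled Sost-/- Heyl stood apart at the top (14.7 CPM per kb), followed by Jag2 (8.29), Notch3 (8.16), Jag1 (6.99), Notch2 (6.47), Notch1 (6.36), Notch4 (6.08), Dll4 (5.80), Hey1 (5.42) and Hey2 (4.79). There every other pair of neighbours overlapped on this length. With the summed length of all annotated exons in place of the principal transcript, Heyl ranked highest in both genotypes and Hey2 lowest. On that length Hey2 (2.66 CPM per kb) also stood apart from Hey1 (4.03 CPM per kb) in the roots labelled Sost-/-, so whether those 2 genes overlap there depends on the length used.

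The share of each gene in its family is a description that does not depend on how libraries are scaled, whereas the summed levels do depend on it. Summed over the 4 receptors, levels overlapped between genotypes (25.7 ± 4.04 against 27.1 ± 4.34 CPM per kb, SD, n = 3). Within that sum, Notch4 made up 30.4%, 31.4% and 30.7% in the roots labelled Sost+/+ and 22.3%, 24.4% and 21.1% in the roots labelled Sost-/-, without overlap. Notch2 made up 19.4%, 17.5% and 19.96% against 20.7%, 24.1% and 27.5%, also without overlap, while the shares of Notch1 and Notch3 overlapped. The summed ligands overlapped too (21.8 ± 0.646 against 21.1 ± 2.40 CPM per kb), but the share of Jag1 was 21.6%, 21.6% and 21.7% against 30.2%, 33.4% and 36.5%. The share of Jag2 was lower without overlap, at 46.7% ± 3.52 against 39.2% ± 3.03 (SD, n = 3). The share of Dll4 overlapped on this length. With the summed length of all annotated exons it was lower without overlap (mean 35.9% against 30.5%). The summed HEY genes were higher without overlap (17.1 ± 2.66 against 24.9 ± 4.17 CPM per kb), but the nearest libraries were 19.7 and 20.4 CPM per kb. Hey2 made up 9.92%, 11.6% and 11.8% of that sum against 20.1%, 17.5% and 19.7%. Hey1 was at 34.6% ± 3.12 against 22.0% ± 1.99 and Heyl at 54.3% ± 2.36 against 58.9% ± 0.903 (SD, n = 3), each without overlap. Shares within a family are tied to each other, so a rise of any gene lowers the shares of the rest. The shares of ligands and HEY genes thus partly restate the rises of Jag1 and Hey2. In CPM, Notch2, Notch4, Jag2 and Hey1 overlapped between genotypes, and the log2 fold change of Hey1 was -0.11. How often shares in other gene families do not overlap was not counted.

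**Figure D3:**
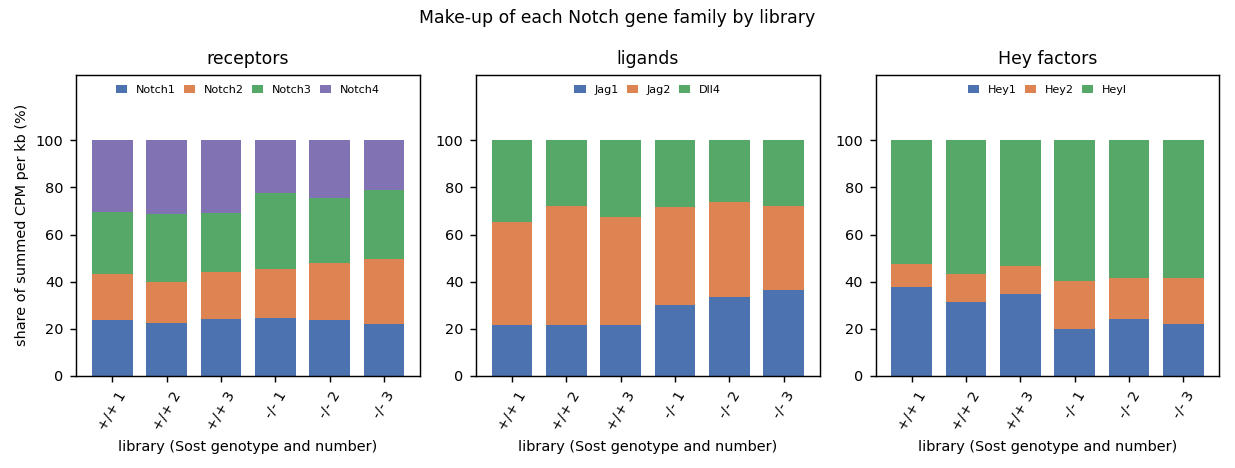
Share of each gene in the summed CPM per kb of its family (%, stacked bars, 1 bar per library), for receptors, ligands and HEY genes. In the roots labelled Sost-/- the bars of Notch2, Jag1, Hey2 and Heyl are taller than in every root labelled Sost+/+. Those of Notch4, Jag2 and Hey1 are shorter, and those of Notch1, Notch3 and Dll4 overlap.

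Ratios of 2 genes within a library were taken for 6 pairs, and 5 did not overlap between genotypes. Of single genes 25.4% did not overlap, and the share over all pairs of genes was not counted. Each of the 5 except Notch3 to Notch4 has Hey2 or Jag1 as its upper gene, so these ratios partly restate the rises of Hey2 and Jag1. Per kb, Jag1 stood at 0.620, 0.775 and 0.672 times the level of Dll4 in the roots labelled Sost+/+, and at 1.07, 1.27 and 1.31 times in the roots labelled Sost-/-, so Jag1 lay below Dll4 in the former and above it in the latter. Hey2 stood at 0.263, 0.369 and 0.339 times the level of Hey1 against 1.005, 0.731 and 0.892 times, a difference of 1.44 on the log2 scale. The difference was 0.87 for Jag1 to Jag2, 0.66 for Hey2 to Heyl and 0.61 for Notch3 to Notch4, each without overlap. Notch3 to Notch1 overlapped, with a difference of 0.16. In exact two-sided permutation tests the 5 ratios without overlap had p = 0.1, the smallest that 3 against 3 libraries allow, and an adjusted p = 0.12 over the 6, so this design could not bring a ratio under the threshold.

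Members were also set against markers of a cell type known to express them. Each was set against a single list, so Jag1 was not compared with endothelial markers. The level of Hey1 relative to the mean of 13 endothelial markers was -2.65 ± 0.07 in the roots labelled Sost+/+ and -2.64 ± 0.17 in the roots labelled Sost-/- (log2 scale, SD, n = 3). The differences between genotypes were 0.19 for Notch1, -0.26 for Notch4 and -0.14 for Dll4, each with overlap. Relative to the median of the markers instead, Notch1 was at 0, Hey1 at -0.19 and Dll4 at -0.33, and Notch4 at -0.45 no longer overlapped (exact permutation p = 0.1). Hey2 relative to the mean of 14 smooth muscle markers was at -4.27, -4.31 and -3.61 against -3.88, -4.23 and -4.34, with overlap. The smooth muscle markers were themselves higher without overlap in the roots labelled Sost-/-. A gene that rose less than they did therefore lies lower relative to them. The log2 fold changes of Notch3, Jag1 and Heyl themselves were 0.25, 0.57 and 0.66. The level of Notch3, Jag1 and Heyl relative to these markers differed by -1.17, -0.84 and -0.74, without overlap. With the median of the markers these differences were -0.76, -0.43 and -0.33, Notch3 alone of the 3 stayed without overlap, and Hey2 was at 0.32. Over these 8 tests the smallest exact two-sided permutation p was 0.1, the lowest this design allows (adjusted p = 0.267).

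**Figure D4:**
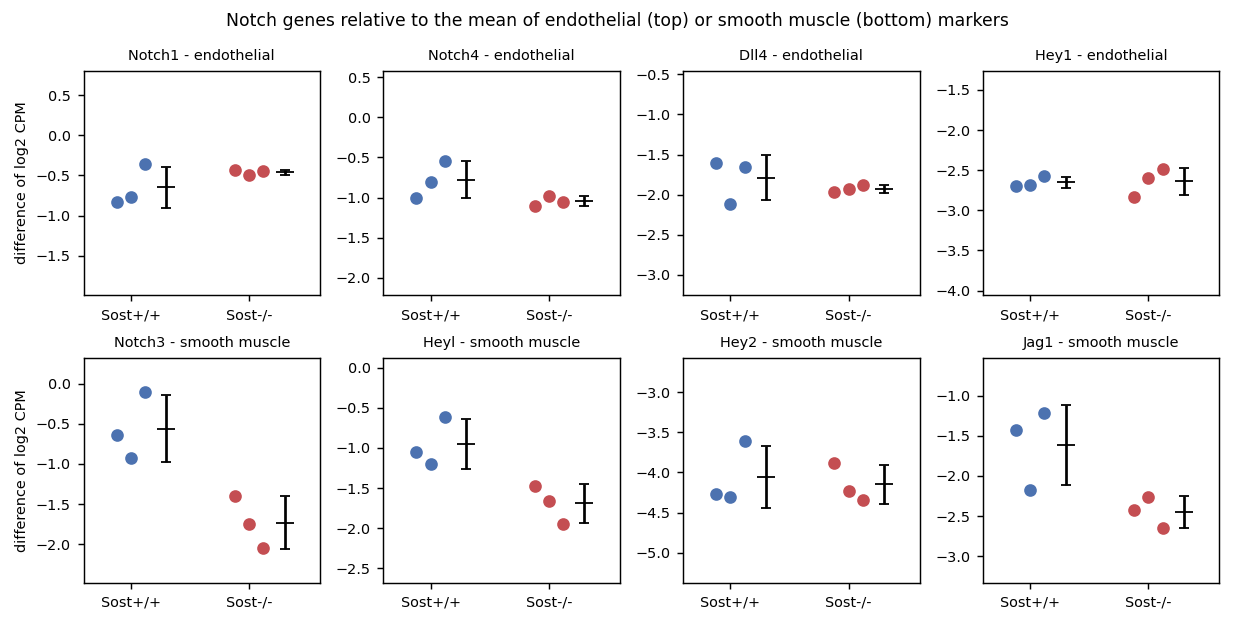
Level of a Notch gene minus the mean level of endothelial markers (upper row) or smooth muscle markers (lower row), as a difference of log2 CPM, per library (points) with mean and SD (black bars, n = 3). Notch3, Heyl and Jag1 lie lower relative to smooth muscle markers in all roots labelled Sost-/- and the other 5 genes overlap. The smooth muscle markers themselves were higher in those roots. With the median of markers in place of the mean, not plotted, Jag1 and Heyl overlap and Notch4 does not.

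With the smooth muscle level of each library as a covariate, edgeR called none of the members and none of all 15096 genes (0 members and 409 genes had an unadjusted p under 0.05, and DESeq2 was not run with it). The log2 fold changes of Hey2, Heyl and Jag1 were then 0.55 (SE 0.48), -0.03 (SE 0.33) and 0.49 (SE 0.24). Without the covariate they were 1.33, 0.66 and 0.57. With the cardiomyocyte level as covariate edgeR again called 0 genes (395 at an unadjusted p under 0.05), with Hey2 at 1.38 (SE 0.48) and Jag1 at 0.54 (SE 0.21), both under 0.05 before adjustment. With the endothelial level as covariate Hey2 (1.49, SE 0.19), Heyl (0.80, SE 0.13) and Jag1 (0.58, SE 0.10) passed in edgeR (adjusted p = 0.0187, 0.0309 and 0.0364), where 1.02% of genes were called as higher. Smooth muscle and cardiomyocyte levels do not overlap between genotypes, so those 2 fits extrapolate beyond the libraries measured, and the part of cell composition in the rises of Hey2 and Jag1 cannot be told apart from genotype.

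**Figure D5:**
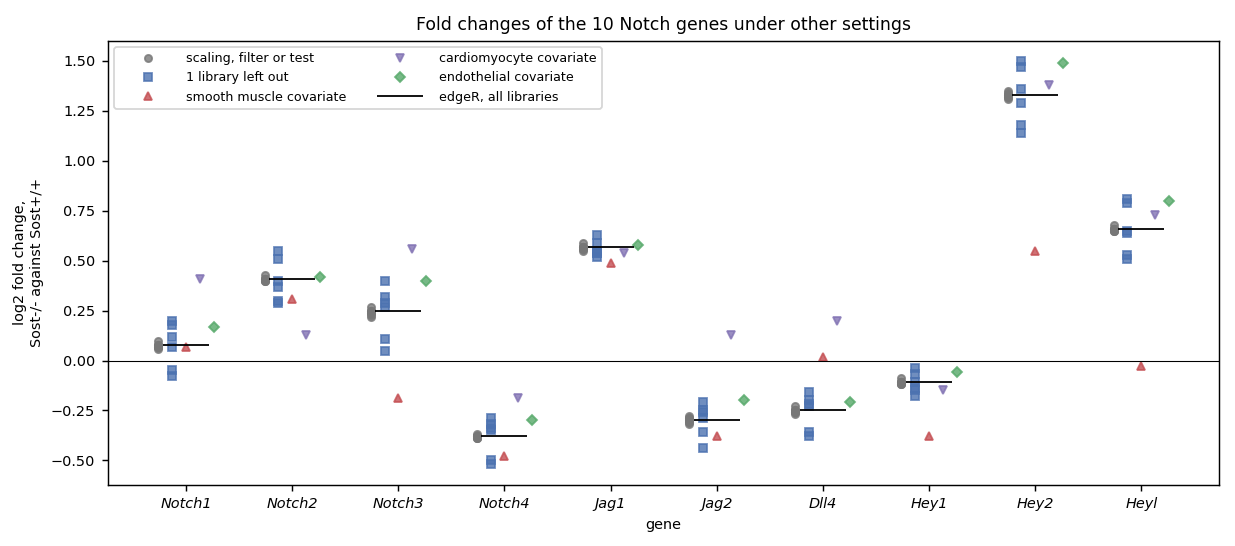
Log2 fold change of each member in edgeR with all libraries (black line), under other scalings, filters and tests (grey), with 1 library left out in edgeR (blue), and with a marker level as covariate (red, purple and green). Jag1 lies between 0.49 and 0.63 throughout. With the smooth muscle covariate Hey2 is at 0.55 (SE 0.48), Heyl at -0.03 (SE 0.33) and Jag1 at 0.49 (SE 0.24). Smooth muscle and cardiomyocyte levels do not overlap between genotypes, so those fits cannot tell cell composition from genotype.

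Among the other genes of the pathway, 2 regulators of the Deltex family rose. Of 52 listed symbols, 51 were in the table and 46 were tested. Of these 46, 2 rose and 0 fell, where 2.18% of all genes were called as higher and 0.371% as lower, so the count lies about 1 gene above that share, with a median log2 fold change of 0.01, equal to that of all genes tested. Both that rose belong to the 9 tested genes of receptor turnover, of which 0 fell. Dtx1, a ubiquitin ligase that binds the Notch intracellular domain and is itself a Notch target in several tissues, was at 6.84, 8.32 and 7.69 CPM against 11.4, 13.5 and 12.0 CPM (log2 fold change 0.69, SE 0.13, edgeR adjusted p = 0.0299). Dtx3, a related ligase, was at 66.8, 82.2 and 70.7 CPM against 101.6, 96.2 and 110.9 CPM (0.49, SE 0.10, adjusted p = 0.0446). Neither had any overlap between genotypes. Like Hey2 and Jag1, neither was called without root 1 labelled Sost+/+ (adjusted p = 0.134 for Dtx1 and 0.167 for Dtx3) or without root 3 labelled Sost-/- (0.126 and 0.206). Dtx1 and Dtx3 were also not called without root 3 labelled Sost+/+ (0.0666 and 0.0960) or without root 2 labelled Sost-/- (0.0833 and 0.0695). In those fits edgeR did call Jag1 (adjusted p = 0.0469 and 0.0220), and in the latter it called Hey2 (0.0190). Without root 1 labelled Sost-/- Dtx1 passed in edgeR (adjusted p = 0.0434) and Dtx3 did not (0.0736). DESeq2 called both genes in each fit with 1 root left out, except Dtx3 without root 3 labelled Sost-/- (adjusted p = 0.0621). With the smooth muscle covariate Dtx1 was at 0.62 (SE 0.32) and Dtx3 at 0.06 (SE 0.21), and with the cardiomyocyte covariate at 0.46 and 0.26. With the endothelial covariate both kept their size, at 0.66 and 0.52, but did not pass in edgeR (adjusted p = 0.0730 and 0.0764).

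No gene of the other roles passed in edgeR, and the gene of smallest p in each had these values. In the nuclear complex (9 tested) it was the coactivator Maml2, at 23.9, 24.7 and 19.4 CPM against 29.8, 28.7 and 35.9 CPM (log2 fold change 0.48, SE 0.12, edgeR adjusted p = 0.0857). The genotypes of Maml2 did not overlap, and DESeq2 called it (adjusted p = 0.0236, where 5.08% of genes were called as higher). DESeq2 did not call it without root 1 or 3 labelled Sost+/+ (0.0635 and 0.0866) or without root 3 labelled Sost-/- (0.278), and with the smooth muscle covariate in edgeR it was at -0.03. Among proteases that cut the receptor (10 tested) it was Aph1a, a gamma-secretase subunit (-0.27, SE 0.09, adjusted p = 0.134). Among genes of ligand ubiquitination (5 tested) it was Neurl3, a ubiquitin ligase (-0.45, SE 0.14, adjusted p = 0.137).

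The O-fucosyltransferase Pofut1 led the genes of receptor glycosylation (5 tested) at 0.20 (SE 0.10, edgeR adjusted p = 0.294). The epsin Epn2, of ligand endocytosis, led the modulators (3 tested) at 0.27 (SE 0.10, adjusted p = 0.196), and the ligand Dll1 led the other ligands (2 tested) at 0.16 (SE 0.17, adjusted p = 0.623). Hes1, the best known Notch target outside the HEY family, was at 39.4, 36.1 and 38.5 CPM against 31.4, 35.2 and 31.1 CPM. These values did not overlap and lay lower in the roots labelled Sost-/-, opposite in sign to Hey2 and Heyl, but the log2 fold change of -0.22 (SE 0.09, adjusted p = 0.202) did not pass. The other tested targets of that list were Hes6 (-0.03) and Nrarp (0.02), whereas Hes5 and Hes7 were below the filter.

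The 3 genes nearest in pattern over the 6 libraries were found for each of Hey2 and Jag1. Nearness was the root mean square difference of log2 CPM, each gene centred on its own mean, over 12797 other genes that carry a name and average 1 CPM or more. Nearest to Jag1 were Col14a1, a fibril-associated collagen gene (0.030), Peli2, a ubiquitin ligase gene (0.049), and the zinc finger gene Zfp61 (0.051). Nearest to Hey2 were Pi15 (0.104), Lamc3, a laminin chain gene (0.113), and the fibroblast growth factor receptor gene Fgfr2 (0.137). Among members, Heyl was nearest, at rank 101, in nearness to Hey2 (0.338), and Notch2 ranked 427 in nearness to Jag1 (0.159).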

How the data were processed

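Counts per gene from bulk RNA sequencing of 6 aortic roots were used. Per the labels' protocols, roots were snap frozen, RNA was taken up in Trizol and libraries were made with a directional kit. The deposited table of raw counts is credited to DRAGEN, HTSeq and DESeq2 on mm10 per the submitters' processing notes; for versions, annotation and strand, nothing is given in the sources used here. The deposited normalized signal is the same counts divided by 1 size factor per library by the authors, as tested on the values. In GENCODE M21, exons of Notch1, Notch3 and Dll4 overlap antisense transcripts and Notch2 overlaps a transcript on its own strand, whose reads may not be told apart.

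Genes passing filterByExpr (minimum count 10, minimum total 15) were scaled by TMM and tested in edgeR 4.0.16 (quasi-likelihood, R 4.3.3) with Benjamini-Hochberg adjustment over 15096 genes, threshold 0.05. CPM uses TMM-scaled totals, and log2 CPM a prior count of 2. SE is the log2 fold change divided by the square root of F, and 95% intervals use the fitted degrees of freedom. DESeq2 1.42.0 and limma 3.58.1 gave alternatives, with a pseudocount of 1 on deposited signal. No label ties a root to an animal or culture, so a p-value reflects only how far these roots differ from each other, which may be technical. DESeq2 with a library left out, and summed exon length in place of the principal transcript, were chosen after seeing the data. The members, lists and tests were chosen with earlier results of these data known. Named genes are the members, Sost, per pathway role those that passed or otherwise the 1 of smallest p, up to 3 abundant markers per list, and the 3 nearest genes in pattern to each member that passed. Hes5, Hes6, Hes7 and Nrarp fall outside this rule and were named after their values were seen.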

Additional observations from a re-analysis of the deposited data

How the results depend on the processing

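Of 230 values of the 10 members under other settings, 200 kept their direction and side of the threshold, 11 passed newly, 10 no longer passed and 9 reversed. Reversals touched only members that had not passed. With the smooth muscle covariate Notch3 was at -0.19, Dll4 at 0.02 and Heyl at -0.03, and with the cardiomyocyte covariate Jag2 was at 0.13 and Dll4 at 0.20. Without library 1 labelled Sost+/+ Notch1 was at -0.05 in edgeR and in DESeq2, and without library 1 labelled Sost-/- at -0.08 and -0.10. Relative to the median of markers in place of the mean, Notch1 was at 0 and Hey1 at -0.19 for endothelial markers and Hey2 at 0.32 for smooth muscle markers. With a library left out, Hey1 relative to endothelial markers ranged from -0.07 to 0.10 and Hey2 relative to smooth muscle markers from -0.22 to 0.14. Relative to endothelial markers, Notch1 ranged from 0.10 to 0.34, Notch4 from -0.37 to -0.14 and Dll4 from -0.30 to -0.04.

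Against 329 genes called higher and 56 lower by edgeR, DESeq2 called 753 and 408, the endothelial covariate left 154 and 33, the smooth muscle and cardiomyocyte covariates left 0 and 0, and no filter gave 92 lower. Against 2 members higher, these last 2 covariates left 0, and against 2 pathway genes higher, all 3 covariates left 0. With a library left out in edgeR or DESeq2, genes called ranged from 0 to 737 higher and 0 to 679 lower, members from 0 to 4 higher and 0 to 2 lower, and pathway genes from 0 to 4 higher and 0 to 1 lower. The causes were not tested, and a fit with 2 libraries in a genotype has fewer samples. No paired analysis was possible because the labels give no replicate numbers; numbers 1 to 3 follow the deposited order. Hey2 had 162 counts in its lowest library, the fewest of any member.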
